A study of Mus musculus with 16 samples.

Results

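The proteasome genes of the mouse spinal cord were followed across control, spastic and B6C3Fe arrays. Members were chosen by gene symbol: probe sets with a single platform symbol that begins with Psma to Psmg and a number, or that is Pomp, without the immunoproteasome subunits Psmb8, Psmb9 and Psmb10. The rule took 56 of 12488 probe sets, which stand for 44 genes. It also took 2 genes that only share the prefix, Psmc3ip, a recombination protein, and Psme3ip1, a partner of an activator; they are kept in the counts and named apart. The 2 probe sets of Psme2 carry several symbols and are not members. Of the 44 genes, 41 had a probe set above the filter on low values and were tested. Psmc3ip was at the floor on all 16 arrays, and Psmc4 (an ATPase) and Psmd2 (a scaffold of the base) had means under the filter.

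The series holds 16 single-colour arrays of total RNA from murine spinal cord. By title, 8 arrays are controls (Ctr) of 9 and 12 months, 6 are spastic (Spa) of 2, 3, 3+ and 6 months, and 2 are B6C3Fe, a hybrid stock, of 1 month. The spastic allele is a recessive mutation in Glrb, which codes for the glycine receptor's beta subunit; the titles give no strain or genotype for the controls. Titles come with a letter, a or b, and the arrays of one title were averaged into 1 sample, giving 4 control samples (a female and a male of each age), 5 spastic samples and 1 B6C3Fe sample, a male. The spastic samples are a 6-month female titled M, 2 females of 2 months titled 1 and 2, a 3-month male titled sev and a 3+-month male. Each control sample, the 6-month spastic sample and the B6C3Fe sample average an a and a b array, while the other spastic samples are single arrays. The labels do not say whether samples are single animals or pools, or whether arrays that share a title are separate animals, so p-values measure only the spread between these samples. Age and group change together and cannot be told apart.

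The proteasome degrades proteins tagged with ubiquitin. Its core particle is a barrel of alpha rings (Psma), which gate entry, around beta rings (Psmb), of which Psmb5, Psmb6 and Psmb7 cut the substrate. A regulatory particle caps the barrel: a base with ATPases (Psmc) that unfold the substrate, and a lid with scaffold subunits and a deubiquitinase (Psmd). Activators (Psme) can replace that cap, and Psmg proteins and Pomp assemble the core. The transcription factor Nfe2l1 raises proteasome genes when the enzyme is inhibited, and neurons depend on the proteasome for protein turnover at synapses.

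Some arrays stand apart or go against their titles. Glrb had a log2 intensity of 9.92 to 11.11 on the spastic arrays, under the 12.70 to 13.30 of the controls and the 12.92 to 12.98 of B6C3Fe; which part of the gene its probe set reads was not checked. The sex genes Xist and Eif2s3y matched the titled sex on 14 of 16 arrays; both spastic arrays titled male had the female pattern. The ratio of 3-prime to 5-prime signal of Pcx, a control for RNA or label length, was 1.31 to 2.72 (log2) in controls, 2.00 to 2.98 in spastic cords and 1.67 to 1.89 in B6C3Fe, and the highest control value came from the 9-month female array a. The same ratio for actin was -0.45 to 1.27 in controls, -0.56 to 0.71 in spastic cords and -3.29 and -1.21 on the B6C3Fe arrays, outside both other groups. Among markers, 8 of 9 endothelial and mural genes rose in spastic cords, with a summed intensity of 7736 to 10230 against 3593 to 4932 in controls, and 0 of them lay at the floor throughout. Of the motor neuron list, 2 of 2 genes tested rose. The 3 genes of this list on the array, tested or not, summed to 4491 to 7385 against 2112 to 4468. The neuronal list summed to 60270 to 80510 against 59310 to 79410, with 1 of 9 genes higher and 3 lower. Among all genes tested, 9.82% were called higher and 9.93% lower in spastic cords, and these lists are short. Of the glial lists, 2 of 5 astrocyte genes, 1 of 5 oligodendrocyte genes and 2 of 6 microglia genes fell and 0 rose. Each glial list was summed over all its genes on the array, tested or not (5, 6 and 7 in that order). The sums were 25230 to 53290 against 33550 to 52140 for astrocytes and 33990 to 61680 against 36300 to 54740 for oligodendrocytes. For microglia they were 7123 to 12250 against 10800 to 13610. Spinal cord position genes (5 of 5 Hox genes on the array) summed to 5737 to 6699 in spastic cords and 5487 to 6782 in controls. The sums overlapped, but 2 of the 5 Hox genes were called higher in spastic cords and 0 lower. Skeletal muscle genes, of which 2 of 7 fell, summed to 1443 to 9976 in spastic cords and 4774 to 10250 in controls. Blood genes, of which 0 of 2 were called, summed to 8074 to 25440 in spastic cords, 14870 to 19400 in controls and 3324 to 5548 in B6C3Fe. The part of these markers in the results below was not tested. In whole cord, fewer cells of a type and less RNA per cell cannot be told apart.

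Proteasome promoters were available for 35 of the 42 subunit and assembly genes. They were read from RefSeq (GRCm38.p6) from 250 bases before to 50 bases after the gene start, first window of each gene. The letters TGACNNNGC, the core of the element that Nfe2l1 and Nfe2l2 bind, stood on either strand in 6 of these 35 windows (17.1%), against 12.5% of all 27025 promoters. CCAAT, the box read by NF-Y, stood in 12 of them (34.3%), against 37.9% of all. Of the genes that rose in spastic cords, 7 had a window and 2 held TGACNNNGC, Psmb5 and Psmb6, both coding for cutting subunits; of the 24 windows of genes that were not called, 3 held it (12.5%). The 2 windows are shown beside those of Psmd11, the member with the largest rise, which holds neither motif, and Psmc6, which fell and holds TGACNNNGC on the opposite strand. Capitals mark the motif. The motif begins 47 bases before the start in Psmb5 and 9 bases before it in Psmb6. A match is a run of letters and not evidence of binding. The windows are chr14:54617946-54618245 (minus strand) for Psmb5, chr11:70525107-70525406 (plus) for Psmb6, chr11:80428365-80428664 (plus) for Psmd11 and chr14:45329574-45329873 (plus) for Psmc6, each written 5′ to 3′ on the gene's strand.
Psmb5: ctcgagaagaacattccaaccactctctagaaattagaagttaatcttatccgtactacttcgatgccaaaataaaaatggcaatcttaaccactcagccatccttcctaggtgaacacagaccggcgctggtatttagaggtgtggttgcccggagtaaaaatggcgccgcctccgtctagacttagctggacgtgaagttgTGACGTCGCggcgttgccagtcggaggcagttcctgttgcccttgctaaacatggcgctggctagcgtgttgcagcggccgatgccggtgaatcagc
Psmb6: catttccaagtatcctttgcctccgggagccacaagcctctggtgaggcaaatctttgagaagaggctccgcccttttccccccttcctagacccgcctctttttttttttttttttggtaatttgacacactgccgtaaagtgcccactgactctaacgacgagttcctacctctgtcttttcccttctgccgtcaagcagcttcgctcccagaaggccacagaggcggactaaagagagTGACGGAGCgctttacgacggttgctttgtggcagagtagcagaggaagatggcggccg
Psmd11: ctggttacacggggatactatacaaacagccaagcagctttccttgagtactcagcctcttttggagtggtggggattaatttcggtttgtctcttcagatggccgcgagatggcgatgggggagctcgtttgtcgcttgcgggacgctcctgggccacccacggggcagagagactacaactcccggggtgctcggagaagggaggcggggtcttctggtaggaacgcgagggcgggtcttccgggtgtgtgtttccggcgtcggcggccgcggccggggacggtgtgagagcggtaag
Psmc6: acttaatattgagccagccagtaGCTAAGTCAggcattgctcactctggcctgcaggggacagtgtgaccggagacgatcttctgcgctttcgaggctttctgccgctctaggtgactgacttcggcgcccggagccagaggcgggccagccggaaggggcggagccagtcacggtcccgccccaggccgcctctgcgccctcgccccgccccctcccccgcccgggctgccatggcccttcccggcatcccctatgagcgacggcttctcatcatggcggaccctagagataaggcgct

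Proteasome genes moved in both directions in spastic against control cords, by modest amounts. In the limma fit, p-values were adjusted by Benjamini-Hochberg across the 6425 probe sets tested. They are called genes here, although 5692 of them carry 1 symbol and the rest none or several. Of the members, 8 of 41 rose, against 9.82% of all genes, and 2 fell, against 9.93% of all genes. Called in either direction were 10 of 41 (24.4%), close to the 19.8% of all genes, so the count alone does not set these genes apart. The risers were 5 lid and base genes, 2 cutting subunits of the core and 1 activator; the fallers were Psma1 of the alpha ring and the ATPase Psmc6. The median difference was 0.10 (log2) over the 41 genes and -0.02 over all, and 0.06 against 0.04 after quantile normalization. The median size of a difference was 0.24 for the 41 genes and 0.24 for all, and no member differed by over 1, as 2.77% of all genes did. At an unadjusted p under 0.05, 18 of 41 differed, against 34.3% of all. Of the 41, 11 were higher, against 16.9% of all, and 7 lower, against 17.3% of all.

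**Figure D1:**
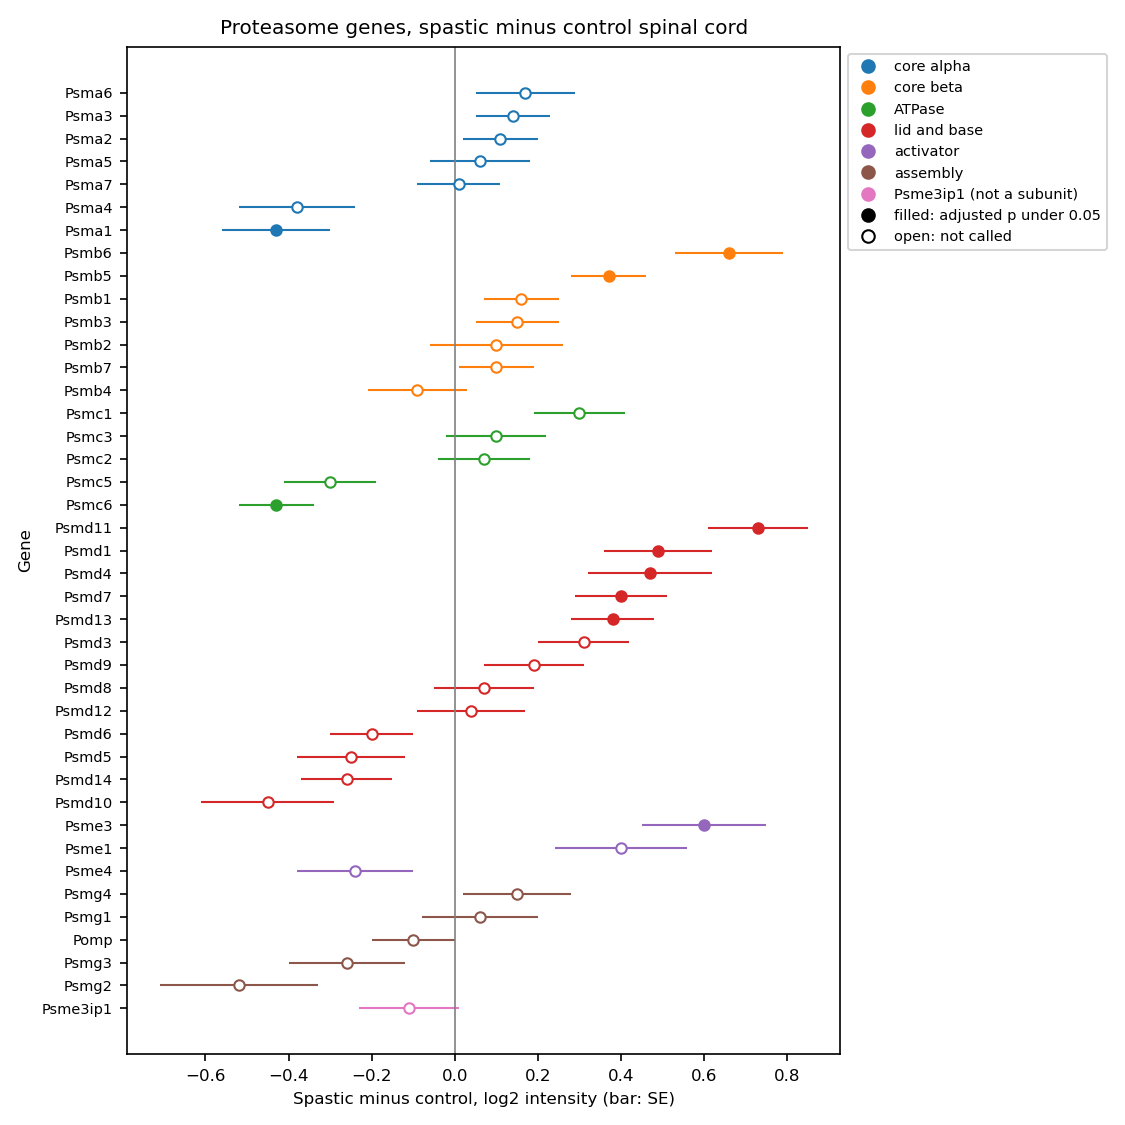
Spastic minus control difference in log2 intensity (x axis, bar: SE of the limma fit) for the 41 proteasome genes tested, grouped and coloured by role; filled points passed an adjusted p of 0.05. Psmd11 lies highest at 0.73 and Psmg2 lowest at -0.52, and the filled points are 8 above 0 and 2 below.

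In the beta rings of the core, Psmb6 and Psmb5 rose. Psmb6, the caspase-like subunit, had log2 intensities of 10.86, 11.32, 11.10 and 10.85 in the control samples, of 11.55, 11.60, 11.71, 12.10 and 11.38 in the spastic samples and of 10.99 in B6C3Fe. Every spastic sample lay above every control sample, and the 3+-month sample was the highest. The difference was 1.58-fold (0.66, SE 0.13, adjusted p = 0.0065). Psmb5, the chymotrypsin-like subunit, had 11.52, 11.86, 11.61 and 11.66 in controls, 11.93, 12.13, 12.11, 12.03 and 11.92 in spastic samples and 11.59 in B6C3Fe. These groups did not overlap either, and the difference was 1.29-fold (0.37, SE 0.09, adjusted p = 0.0174). The second probe set of Psmb5 was at -0.15 (SE 0.19, adjusted p = 0.607 with every probe set tested), so the rise was read by 1 of 2. Psmb7, the trypsin-like subunit, was at 0.10 (SE 0.09, adjusted p = 0.483). The other beta genes, Psmb1 to Psmb4, did not pass the test, with differences from -0.09 (Psmb4) to 0.16 (Psmb1). Psmb1 was 12.28 to 12.41 in controls and 12.44 to 12.59 in spastic samples, without overlap, but a further probe set above the filter was at -0.02.

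In the alpha rings, 0 of 7 genes rose and 1 fell, with differences from -0.43 to 0.17. Psma1 had 9.49, 9.64, 9.82 and 9.52 in controls, 9.33, 9.19, 9.28, 9.19 and 8.96 in spastic samples and 9.23 in B6C3Fe. All 5 spastic samples lay under the lowest control, a log2 difference of -0.43 (SE 0.13, adjusted p = 0.0382). Of the 9 fits without 1 control or spastic sample, 1 kept the call. Psma4 was at -0.38 (SE 0.14, adjusted p = 0.081), and the highest alpha gene was Psma6 at 0.17 (SE 0.12, adjusted p = 0.363). Psma2, Psma3, Psma5 and Psma7 lay between 0.01 and 0.14.

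Among the ATPases that unfold the substrate, 1 of 5 fell. Psmc6 had 12.63, 12.92, 12.80 and 12.88 in controls, 12.33, 12.20, 12.58, 12.35 and 12.36 in spastic samples and 12.78 in B6C3Fe. The groups did not overlap, although the nearest samples were 12.63 and 12.58, and the log2 difference was -0.43 (SE 0.09, adjusted p = 0.0105). Each of the 9 fits without 1 sample kept the call. Psmc1 was at 0.30 (SE 0.11, adjusted p = 0.0665), Psmc5 at -0.30 (SE 0.11, adjusted p = 0.0869), and Psmc2 and Psmc3 at 0.07 and 0.10. The 3 probe sets of Psmc3 were at 0.10, -0.13 and -0.18, none of them called.

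The Psmd genes of the lid and base held most of the rises: 5 of 13 rose, against 9.82% of all genes, and 0 fell. Of the base ATPases, given above, 0 of 5 rose and 1 fell. Psmd11, a lid subunit, had 11.28, 11.48, 11.84 and 11.68 in controls, 12.29, 12.28, 12.34, 12.41 and 12.16 in spastic samples and 11.90 in B6C3Fe. The spastic samples lay close together (SD 0.09, n = 5) and above all controls (SD 0.24, n = 4), a 1.66-fold rise (0.73, SE 0.12, adjusted p = 0.0027). The SDs are not of like samples, since each control averages an a and a b array and most spastic samples are single arrays. Psmd11 has 3 probe sets, and the other 2 did not show the rise, at -0.02 (SE 0.13, adjusted p = 0.94) and -0.28 (SE 0.31, adjusted p = 0.573) with every probe set tested.

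Psmd1, the large scaffold of the base, had 11.14, 11.70, 11.60 and 11.27 in controls and 11.90, 11.80, 11.92, 12.17 and 11.69 in spastic samples, with 11.45 in B6C3Fe. The groups touched, since the lowest spastic sample was just under the highest control; the rise was 1.40-fold (0.49, SE 0.13, adjusted p = 0.0223). Psmd4, a receptor that binds ubiquitin chains, had 11.62, 11.47, 11.74 and 11.59 in controls and 12, 12.02, 12.08, 12.53 and 11.64 in spastic samples, with 10.94 in B6C3Fe. The second 2-month sample lay inside the control range and the 3+-month sample far above the rest. The rise was 1.38-fold (0.47, SE 0.15, adjusted p = 0.044), and 2 of the 9 fits without 1 sample kept the call, where the difference ran from 0.33 to 0.56.

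The lid subunits Psmd7 and Psmd13 rose by like amounts. Psmd7, the partner of the deubiquitinase, had 10.75, 11.11, 11.07 and 11.37 in controls, 11.49, 11.49, 11.48, 11.53 and 11.25 in spastic samples and 11.33 in B6C3Fe (0.40, SE 0.11, adjusted p = 0.0272). The second 2-month sample lay within the controls. Psmd13 had 10.14, 10.41, 10.42 and 10.40 in controls, 10.70, 10.56, 10.83, 10.94 and 10.47 in spastic samples and 10.17 in B6C3Fe, without overlap between controls and spastic samples (0.38, SE 0.10, adjusted p = 0.0231). Each kept its call in 4 of the 9 fits without 1 sample.

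The other 8 lid and base genes did not pass the test. The deubiquitinase Psmd14 was at -0.26 (SE 0.11, adjusted p = 0.108), and the lid scaffold Psmd3 at 0.31 (SE 0.11, adjusted p = 0.0664). The base assembly chaperones went different ways, with Psmd10 at -0.45 (SE 0.16, adjusted p = 0.0694), Psmd5 at -0.25 and Psmd9 at 0.19. Psmd10 was 8.67 to 8.90 in controls and 8.02 to 8.56 in spastic samples, without overlap, yet missed the threshold. Psmd6, Psmd8 and Psmd12 lay between -0.20 and 0.07. Psmd2, the scaffold that docks ubiquitin carriers, was under the filter, with 8.14, 6.49, 7.15 and 7.09 in controls, 6.64, 6.67, 5.93, 5.93 and 6.79 in spastic samples and 7.70 in B6C3Fe, at the floor on 4 arrays. The ATPase Psmc4, also under it, was 6.33 to 7.77 in controls, 6.63 to 7.87 in spastic samples and 6.57 in B6C3Fe.

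One of the 3 activators rose and no assembly factor was called. Psme3, the nuclear activator, had 9.74, 10.21, 10.22 and 10.47 in controls, 10.98, 10.77, 10.55, 10.74 and 10.69 in spastic samples and 10.99 in B6C3Fe. The spastic samples lay above the controls and the B6C3Fe sample above both; spastic minus control was 1.51-fold (0.60, SE 0.15, adjusted p = 0.0174). Its a and b arrays of the 12-month male controls lay far apart, at 9.47 and 10.94. Psme1, an activator raised by interferon, was at 0.40 (SE 0.16, adjusted p = 0.0934) and Psme4 at -0.24 (SE 0.14, adjusted p = 0.242). A second probe set of Psme1, at the floor on 8 arrays, was at -0.22. Of the core assembly factors, Psmg4 was at 0.15 (SE 0.13, adjusted p = 0.428), Psmg1 at 0.06, Pomp at -0.10 (SE 0.10, adjusted p = 0.54), Psmg3 at -0.26 (SE 0.14, adjusted p = 0.216) and Psmg2 at -0.52 (SE 0.19, adjusted p = 0.0723). Psmg3's other probe set was at 0.07 with an SE of 0.37. Psme3ip1 was at -0.11 (SE 0.12, adjusted p = 0.547).

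**Figure D2:**
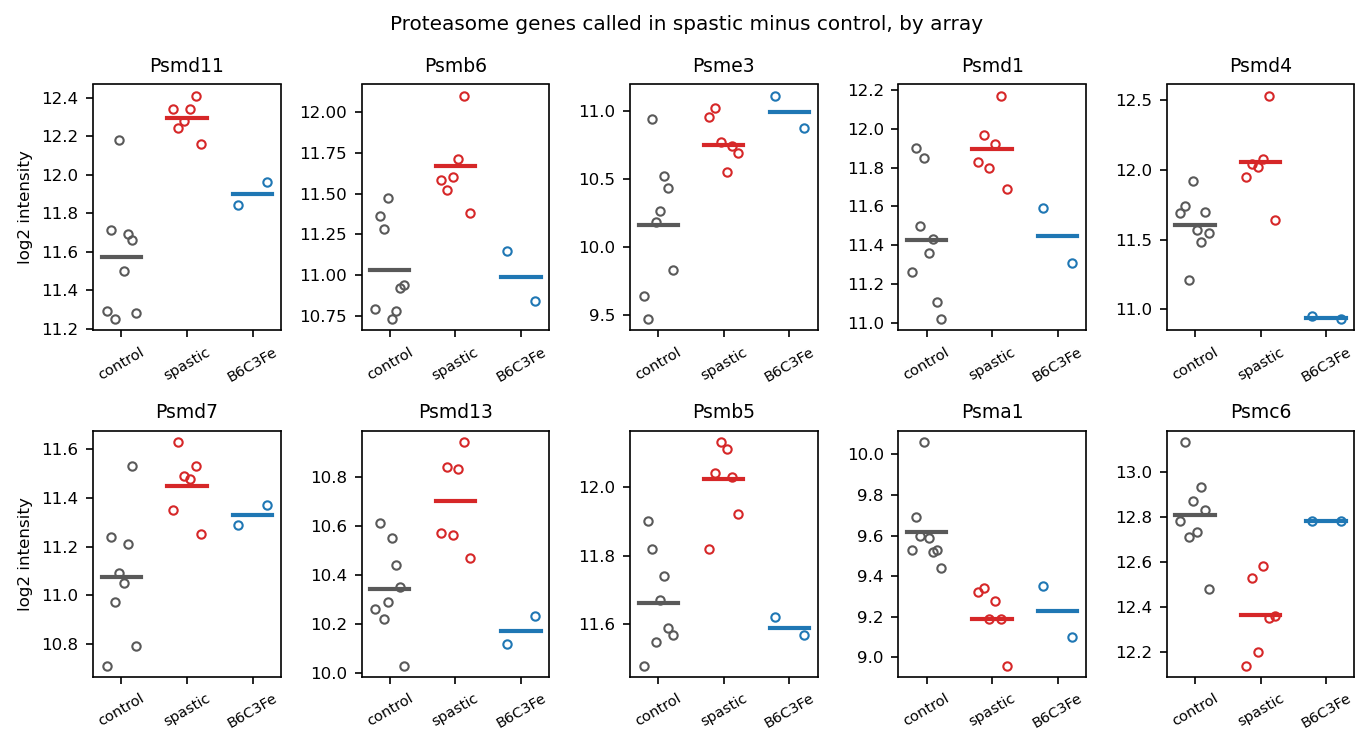
Log2 intensity of the 10 proteasome genes called in spastic minus control, with 1 open circle for each array and a bar at the mean of the titled samples (8 control, 6 spastic and 2 B6C3Fe arrays). Psmd11 to Psmb5 are higher and Psma1 and Psmc6 lower in spastic cords; for Psmd4 both B6C3Fe arrays lie below every other array.

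**Figure D3:**
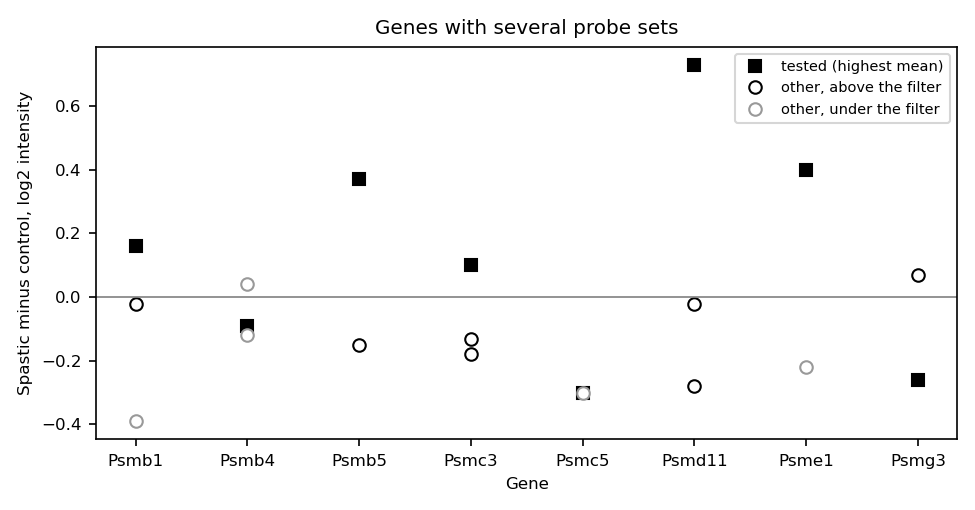
Spastic minus control difference (log2 intensity) of each probe set for the 8 genes with several; squares are the probe sets tested, circles the others, grey where the mean lies under the filter. For Psmd11 and Psmb5 the tested probe set is at 0.73 and 0.37, and all others of these genes lie under 0.

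Groups that did not overlap were counted next. The 5 spastic samples lay wholly above the 4 controls for 6 of 41 genes, against 9.29% of all genes tested, and wholly below for 3, against 10.2% of all. Those above were Psmb1, Psmb5, Psmb6, Psmd11, Psmd13 and Psme3, and those below Psma1, Psmc6 and Psmd10. Together 9 of 41 is near the 19.5% of all genes. This holds for samples, which average the a and b arrays of each control and of the 6-month spastic female. The other spastic samples are single arrays. On single arrays Psma1 and Psmd10 stayed apart, while the others met. The highest control array against the lowest spastic array was 12.18 against 12.16 for Psmd11, 11.47 against 11.38 for Psmb6 and 11.90 against 11.82 for Psmb5. It was 10.61 against 10.47 for Psmd13, 10.94 against 10.55 for Psme3 and 12.53 against 12.39 for Psmb1. For Psmc6 the lowest control array was at 12.48 and the highest spastic array at 12.58.

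Within the spastic group the members did not spread evenly. The 3+-month sample was the highest of the 5 spastic samples for 20 of 41 genes, against 23.9% of all genes tested, and the second 2-month sample was the lowest for 21 of 41, against 20.3% of all. Of the 8 genes that rose, 6 were highest in the 3+-month sample and 7 lowest in the second 2-month sample. No share over all genes called higher stands beside these counts, so they do not set the members apart from other risers. The 3+-month and the second 2-month sample also have the highest and the lowest Pcx ratio of the spastic samples, 2.98 and 2.00. Without the 3+-month sample 4 members were called higher and 1 lower, and 13.4% of all genes were called. The difference was then 0.57 for Psmb6 (adjusted p = 0.0175), 0.71 for Psmd11 (adjusted p = 0.00926) and 0.33 for Psmd4 (adjusted p = 0.0987). The spread was not larger than elsewhere: the median SD was 0.149 in controls and 0.173 in spastic samples for the members, and 0.191 and 0.217 for all genes.

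**Figure D4:**
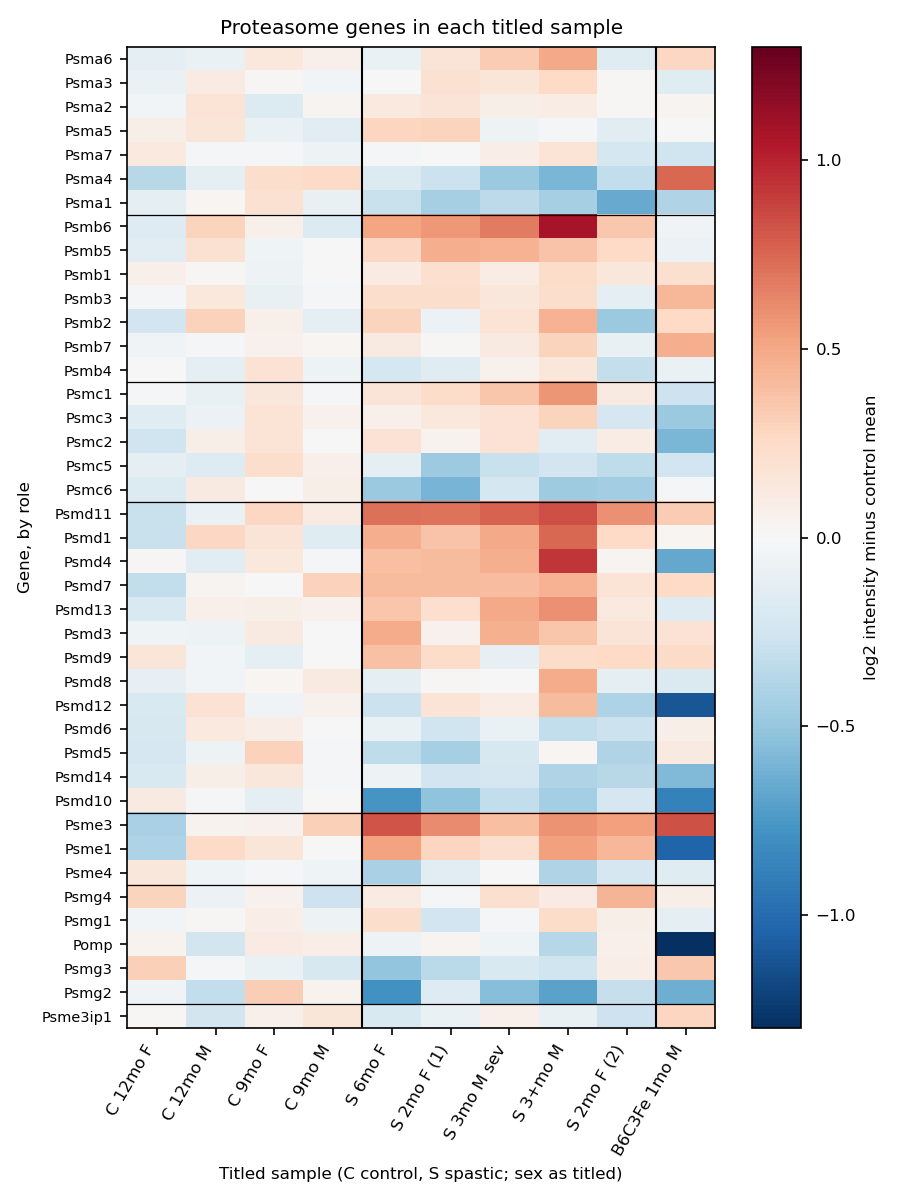
Log2 intensity minus the control mean (colour, red above and blue below) for the 41 genes (rows, by role and then by difference) in the 10 titled samples (columns; black lines part control, spastic and B6C3Fe). The 3+-month spastic sample holds the deepest reds of Psmb6 and Psmd4, and Pomp, Psmd12 and Psme1 are deep blue in B6C3Fe.

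The calls depended on which samples were in the fit. Members called higher fell from 8 to 2 when the 12-month female control sample was left out, to 5 for the 12-month male one and to 4 for the 9-month male one. They fell to 5 when the 6-month spastic sample was left out and to 4 for the 3+-month one. The share of all genes called in either direction dropped in the same fits, from 19.8% to 11.2%, 12.6%, 12.3%, 16.2% and 13.4% in that order. Without both spastic samples titled male, 2 members were called higher, Psmd11 (0.68, adjusted p = 0.0487) and Psme3 (0.84, adjusted p = 0.0309), and 0 lower, with 6.19% of all genes called; the median over the members was then 0.00. Values moved little for Psmb5 (0.43) and Psmc6 (-0.42), and Psmd4 dropped to 0.21. Without the 9-month female control array a, all 10 calls were kept. On that array 5 of the 8 risers were above array b, by 0.74 for Psmb6 and 0.68 for Psmd11, against 51% of all genes called higher. With the Pcx ratio as a covariate, 0 members were called, as were 0.14% of all genes; Psmd11 was then at 0.56 (adjusted p = 0.137), Psmb5 at 0.40 (adjusted p = 0.185), Psmc6 at -0.38 (adjusted p = 0.206), Psmb6 at 0.30 (adjusted p = 0.317) and Psmd4 at 0.06 (adjusted p = 0.894). The median over the members was -0.05 in that fit. The Pcx ratio itself was higher in spastic cords, with a median over arrays of 2.37 against 1.53 in controls. Ratio and group can therefore hardly be told apart in this fit, and the loss of calls does not show which of them the differences follow. When B6C3Fe was pooled with the controls and age (log2) was added as a term, 7 of the 10 calls were kept, with 10.9% of all genes called. Psmd7, Psme3 (0.24, adjusted p = 0.412) and Psma1 (-0.21, adjusted p = 0.337) lost theirs, and Psme1 (0.93, adjusted p = 0.0149), Psma4 (-0.76, adjusted p = 0.0188) and Psmc1 (0.45, adjusted p = 0.0437) gained one. Psmd4 moved to 0.83 (adjusted p = 0.0138). Outside the spastic group, B6C3Fe was the only sample younger than the controls, so the age term rests largely on it. Age and stock cannot be told apart in this fit, and the calls kept or gained are not shown to be free of age.

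Spastic against B6C3Fe sets the mutant cords beside 1-month males. Here 4 of 41 members were higher in spastic cords, against 1.42% of all genes, and 1 was lower, against 0.638%; in either direction 5 of 41 (12.2%) stood beside 2.05%. B6C3Fe is 1 sample, assumed to vary like the other groups, and the fit holds sex only as titled. By Xist and Eif2s3y every spastic array had the female pattern and both B6C3Fe arrays the male one. Sex therefore cannot be told apart from group in this comparison. The low blood sum and low actin ratio of the B6C3Fe arrays move with this comparison, and their part in it was not tested. The 5 genes are an activator, 2 subunits of the lid and base, an assembly factor and an alpha subunit.

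Psme1 was 8.65 to 9.30 in controls, 9.26 to 9.59 in spastic samples and 8.01 in B6C3Fe, whose arrays read 7.53 and 8.49. It was 2.82-fold higher in spastic cords than in B6C3Fe (1.49, SE 0.27, adjusted p = 0.0267). These 2 arrays lie further apart than the spastic samples do. Psmd12, a lid subunit, was 10.55 to 10.93 in controls and 10.34 to 11.16 in spastic samples, and 9.63 in B6C3Fe (arrays 10.03 and 9.23). Spastic minus B6C3Fe was 1.32 (SE 0.23, adjusted p = 0.0236), where the measured means, 10.75 and 9.63, lie closer together than this fitted value. Psmd4 was at 10.95 and 10.93 on the B6C3Fe arrays, under every other array, with spastic minus B6C3Fe at 1.21 (SE 0.25, adjusted p = 0.0361).

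Pomp, which matures the core, had 12.03, 11.74, 12.09 and 12.07 in controls and 11.92, 12.02, 11.93, 11.61 and 12.05 in spastic samples, while B6C3Fe was at 10.66 (arrays 10.31 and 11.01). Controls and spastic cords thus lay together and B6C3Fe apart: spastic minus B6C3Fe was 1.13 (SE 0.18, adjusted p = 0.0163). Psma4 went the other way, at 11.18 to 11.79 in controls, 10.95 to 11.36 in spastic samples and 12.29 in B6C3Fe, and was lower in spastic cords (-1.17, SE 0.24, adjusted p = 0.0361). Psmd4 was the single member called against both references. Both comparisons share the spastic samples. These calls rest on few samples: 0 members were called higher without both spastic samples titled male, 0 without the 3-month one alone, 1 without the 3+-month one and 2 without the 9-month male controls. In these fits 0.0934%, 0.156%, 0.514% and 0.545% of all genes were called in either direction. With the Pcx ratio as a covariate 1 was called higher and 0 lower, with 0.171% of all genes called. The ratio moved with group here too, at a median of 1.78 on the B6C3Fe arrays and 2.37 on the spastic arrays.

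**Figure D5:**
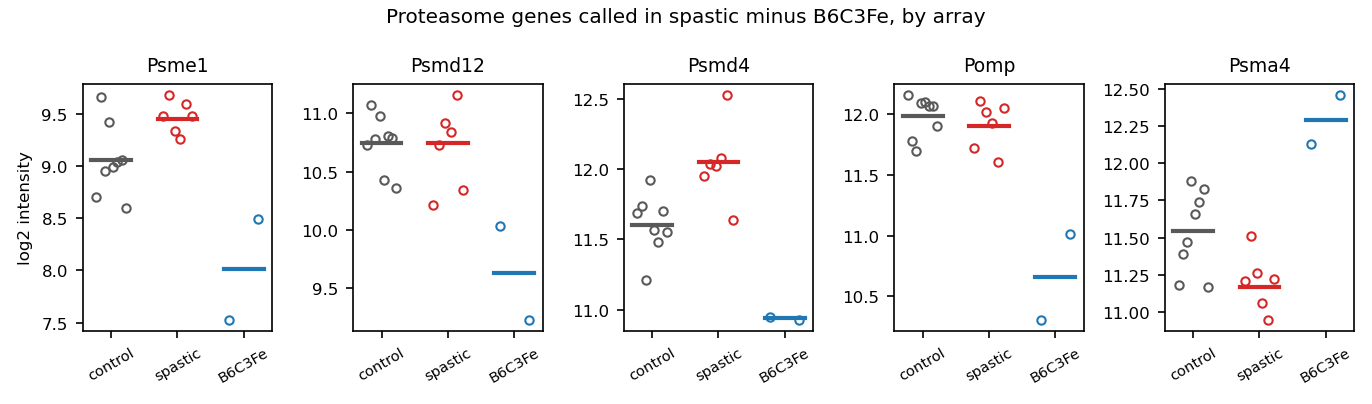
Log2 intensity of the 5 proteasome genes called in spastic minus B6C3Fe, with 1 open circle for each array and a bar at the mean of the titled samples. Both B6C3Fe arrays lie under all others for Psme1, Psmd12, Psmd4 and Pomp and above all others for Psma4.

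B6C3Fe against control gave 2 lower members and 0 higher, against 0.311% and 0.0778% of all genes, or 0.389% in either direction. These were Pomp (-1.23, SE 0.18, adjusted p = 0.0252) and Psmd12 (-1.29, SE 0.23, adjusted p = 0.0429). Psme1 (-1.09, adjusted p = 0.101) and Psmd4 (-0.75, adjusted p = 0.199) did not pass. The B6C3Fe sample lay below all 9 other samples for 12 of 41 members, against 13.9% of all genes, and above them for 6, against 14.5%. The first set held the ATPases Psmc1, Psmc2 and Psmc3, and the differences of the 5 ATPases tested ran from -0.58 to -0.12, none of them called. Age changes with this group, and the controls' strain is not stated, so these cannot be told apart from the group. The male controls, at 11.74 and 12.07 for Pomp, also lay above B6C3Fe.

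Age and titled sex within the data called 0 members. For 12 minus 9 months among controls, limma called 0 of 41 members and 0% of all genes, with 2 members at an unadjusted p under 0.05 and a median of -0.11. Those members were Psma4 (-0.48) and Psmd11 (-0.37). The median over all genes was -0.006, and 14 of 41 members lay above 0, against 49.2% of all. Psmd11 was thus lower in the older controls and higher in the spastic cords, which are younger by title than the controls. Psma4 was lower in the older controls and, without a call, lower in spastic cords (-0.38). With no gene called at all, the age comparison cannot show whether age changes these genes. For female minus male, 0 of 41 and 0% were called, with 2 members at an unadjusted p under 0.05 and a median of -0.08. This comparison used sex as titled, and both spastic samples titled male had the female pattern of Xist and Eif2s3y. With no gene called at all, it cannot show whether sex changes these genes.

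Partners of the proteasome were read from a list of 40 genes of ubiquitin transfer, shuttling and proteasome control, 24 of which were tested. In spastic against control cords 5 rose, against 9.82% of all genes, and 5 fell, against 9.93%, with a median of -0.10. Those that rose were Sem1, a small lid subunit outside the naming rule (0.41, SE 0.10, adjusted p = 0.0159), the ubiquitin ligase Stub1 (0.47, adjusted p = 0.0179), Nfe2l1 (0.43, SE 0.11, adjusted p = 0.0234), the immunoproteasome subunit Psmb10 (0.34, adjusted p = 0.0344) and the autophagy receptor Sqstm1 (0.28, adjusted p = 0.0401). Nfe2l1 had 12.09, 12.05, 12.47 and 12.20 in controls, 12.76, 12.66, 12.62, 12.73 and 12.43 in spastic samples and 12.33 in B6C3Fe, and its other probe set was at 0.07.

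The partners that fell were the ubiquitin ligase Ube3a (-1.46, SE 0.17, adjusted p = 0.00072), the shuttle proteins Ubqln2 (-0.52, adjusted p = 0.00567) and Ubqln1 (-0.49, adjusted p = 0.0405), the proteasome-bound deubiquitinase Usp14 (-0.41, SE 0.09, adjusted p = 0.00914) and the conjugating enzyme Ube2d3 (-0.35, adjusted p = 0.0479). Ube3a was at 8.92 to 9.34 in controls, 7.41 to 7.84 in spastic samples and 8.26 in B6C3Fe, far outside the controls. Second probe sets of Ubqln1 (-0.77) and Ube2d3 (-0.83) lay in the same direction. Of the other immunoproteasome subunits, Psmb8 was at -0.30 (SE 0.22, adjusted p = 0.358), and Psmb9 was under the filter, at 5.93 to 6.65 in controls and 5.93 to 6.77 in spastic samples. Against B6C3Fe 0 of the 24 partners were called by limma.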

How the data were processed

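Spinal cord RNA was measured on 16 single-colour arrays. The authors' deposited intensity values are linear, with a mean after trimming 2% at each end near 800.4 on every array, and were taken as scaled by the authors; no software is named (not given in the sources used here). Median intensity per array was 289 to 383.6, and the number of arrays limits the precision. Values under the 20th percentile, 60.86, were set to it (5.927 in log2), which understates differences of dim genes. The 66 control probe sets were left out. Probe sets were named from GEO's platform annotation, where 10833 have 1 symbol, 396 several and 1193 none; all members kept their symbol in RefSeq GRCm38.p6. Probe sets with a mean log2 value above the 40th percentile (7.624) were tested, 6425 in all. Of these, 5692 carry 1 symbol, with 1 probe set for each gene (the highest mean). Those with no or several symbols were each tested as they stand, can repeat a gene and are counted among all genes. Arrays with the same title were averaged (consensus correlation 0.235).

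Differences were fitted with limma 3.58.1 in R 4.3.3 (lmFit, eBayes with trend) on 10 samples of 3 groups with titled sex in the model; tests were 2-sided, called at an adjusted p of 0.05 over all genes. The 12 minus 9 month fit split the controls by age. The fit was tested on simulated data. Members, lists, tests and alternatives were chosen with earlier results of these data known. Named members were those called against either reference, the cutting subunits, Pomp, ubiquitin receptors, activators, the extremes of each role those under the filter and those whose probe sets disagree; further members named with values were chosen after their values were seen. Alternatives were other floors and filters, quantile normalization, arrays as replicates with or without blocks, a arrays alone, every probe set, no trend, no sex term, age, the Pcx ratio and leaving out samples. Promoter motifs were searched with Python 3.11.15.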

Additional observations from a re-analysis of the deposited data

Results flagged for a closer look

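Of 52 groups of 4 or 5 samples checked for the named members, 2 held a sample far from the rest, and chance alone flags about 1 in 20 groups. Psmd13 was at 10.14 in the 12-month female controls, below the next control at 10.40. Psmd7 was at 11.25 in the second 2-month spastic sample, below the next spastic sample at 11.48.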

How the results depend on the processing

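In spastic minus control, all 10 calls were kept with the other floors, the stricter filter, every array as a replicate, every probe set, no sex term, without the 9-month female control array a and without B6C3Fe; 8 were kept after quantile normalization and 8 without a trend. Higher calls went from 8 to 4 with no filter, 4 with a arrays alone, 0 with the Pcx ratio and 2 without the spastic samples titled male, and ran from 2 to 9 when 1 sample was left out. Lower calls went from 2 to 4 with the floor at the 40th percentile, 4 with every array, 4 with the random block, 4 without a trend, 1 with a arrays alone, 0 with the Pcx ratio and 0 without those spastic samples, and ran from 1 to 2. All genes called went from 19.8% to 11.0% with no filter, 29.5% with every array, 23.3% with the random block and 11.8% with a arrays alone.

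In spastic minus B6C3Fe, higher calls went from 4 to 10 with every array, 8 with the random block, 1 with a arrays alone, 1 with the Pcx ratio and 0 without the spastic samples titled male (0 to 5 without 1 sample). Lower calls went from 1 to 0 with no filter, 2 with every array, and 0 with a arrays alone, without a trend, with the Pcx ratio and without those spastic samples (0 to 1). All genes called moved the same way, from 2.05% to 9.87% with every array, 5.03% with the random block and 0.14% with a arrays alone. In B6C3Fe minus control, higher calls went from 0 to 2 with every array and 1 with the random block. Lower calls there went from 2 to 1 with no filter, 7 with every array, 1 with a arrays alone, 0 without a trend, 1 with no sex term and 1 without those spastic samples (0 to 2). All genes called there went from 0.389% to 8.09% with every array and 3.60% with the random block.

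With the letter as a replicate block on single arrays, spastic minus control gave 9 higher and 4 lower, with 28.3% of all genes called in either direction. Spastic minus B6C3Fe gave 9 higher and 1 lower, with 8.05% of all genes called. B6C3Fe minus control gave 2 higher and 7 lower, with 8.17% of all genes called. The letters share only a name. In the 12 minus 9 month and female minus male comparisons 0 members were called by limma in every fit. The cause of these changes was not tested. No result changed sign with a call. B6C3Fe could not be left out of its own comparisons, and the age term was fitted for spastic minus control only. Signal near the floor limits Psmd2, Psmc4 and Psmc3ip.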
